A study of Mus musculus with 12 samples.

Results

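The circadian clock genes of the mouse colon are described here as 10 members chosen by symbol, namely the activators Arntl, Clock and Npas2, the repressors Per1, Per2, Per3, Cry1 and Cry2, and the loop and output genes Nr1d1 and Dbp. All 10 were found among the 54532 genes counted and passed the low-count filter. RNA was taken from the colon of 3 male C57BL/6 mice of each of 4 groups, which had 8 mice each. The Con group was untreated by its label and received the vehicle by gavage by the study's methods. The DSS group drank 3% dextran sulfate sodium (DSS), an agent that damages the epithelium of the colon, for 5 days and received the vehicle. The UA+DSS group also received ursolic acid (UA), a plant triterpenoid, by daily gavage from the day before DSS, for 7 days by the study's methods. The DSS+UA group received UA from 3 days after the start of DSS, for 4 days by the methods, and other passages of the study's text give longer courses for both groups. The mice were 6 weeks old on arrival and lived under 14 h of light and 10 h of darkness. Neither the labels nor the methods give the hour at which tissue was taken, the order of the animals or the stretch of colon sampled. DSS 2 stands for replicate 2 of the DSS group, and likewise for the other libraries.

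The circadian clock is a feedback loop of transcription. Arntl (also called Bmal1) pairs with Clock or with its paralog Npas2, the pair activates the Per and Cry genes and Nr1d1 through E-box sequences, and the PER and CRY proteins then repress the pair. Nr1d1 (REV-ERB alpha) represses Arntl, Clock and Npas2, while Dbp is a clock-driven factor that binds D-boxes. As a result Dbp, Nr1d1 and the Per genes are known to be high in peripheral tissues at hours when Arntl and Npas2 are low, and many functions of the colon follow this rhythm.

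The sequences below show where the letters of E-boxes and D-boxes, the elements through which this loop is known to act, occur near the starts of members. RefSeq promoters (GRCm38.p6, the build of the counts) were found for 9 of the 10 members. The 250 bases before each start were searched on both strands for CACGTG (E-box), CACGTT (variant E-box), TTANGTAA (D-box), and TAGGTCA and TGGGTCA (elements bound by ROR and REV-ERB proteins). The 5 stretches that hold a match are printed 5′ to 3′ on the strand of the gene, with the matched letters in capitals, and lie outside annotated exons.
Cry1 (chr10:85185084-85185158, minus strand): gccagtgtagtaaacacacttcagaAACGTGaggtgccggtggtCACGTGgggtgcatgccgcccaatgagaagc
Per1 (chr11:69098758-69098813, plus strand): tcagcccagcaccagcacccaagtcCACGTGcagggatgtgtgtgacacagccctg
Cry2 (chr2:92434205-92434260, minus strand): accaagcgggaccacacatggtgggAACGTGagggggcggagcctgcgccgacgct
Nr1d1 (chr11:98775378-98775430, minus strand): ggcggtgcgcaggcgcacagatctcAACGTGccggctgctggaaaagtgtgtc
Per3 (chr4:151044791-151044895, minus strand): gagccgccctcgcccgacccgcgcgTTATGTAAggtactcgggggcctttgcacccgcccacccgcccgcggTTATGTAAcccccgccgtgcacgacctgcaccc

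The Cry1 stretch held an E-box whose first base lay at -60 from the start and a variant E-box at -79. The E-box of Per1 lay at -166 from a start inside the gene, in an annotated intron. The variant E-boxes of Cry2 and Nr1d1 lay at -166 and -28 from the start. Per3 held 2 D-boxes, at -205 and -158. No match was found in this window for Arntl, Clock, Npas2 or Dbp, and no member held either ROR and REV-ERB element. An E-box occurred in 2 of the 9 members, against 6.86% of the 27025 genes with a promoter, and a variant E-box in 3 of the 9, against 4.50%. The D-box was present in 1 of the 9 members and in 2.44% of genes, and the TAGGTCA and TGGGTCA elements in 2.55% and 3.73% of genes. These are matches of letters, and binding was not measured.

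Total counts were 15566216 to 19498383 per library, and a member had 87 to 2842 counts in a library. Values are CPM, counts relative to a library size adjusted by TMM factors (0.871 to 1.09). The 9 epithelial markers, which define the labelled tissue, were present in every library, with summed levels of 13041 to 18317 CPM in Con, 7216 to 11824 in DSS, 14309 to 17125 in UA+DSS and 15483 to 24063 in DSS+UA. The 6 neutrophil markers summed to 1.00 to 2.14 CPM in Con and 600 to 17654 in DSS, with DSS 2 the highest. The 6 acinar pancreas markers reached 13342 CPM in DSS 3, against 31.2 to 554 in the other 11 libraries. A Hox score for position along the colon (5 Hox genes of the rectal end minus 6 of the caecal end, as mean log2 CPM) was 5.53, -3.03 and -1.83 in Con 1, 2 and 3. It was 0.37 to 3.10 in DSS, -5.70 to -4.16 in UA+DSS and 4.11 to 5.06 in DSS+UA, so that position along the colon and UA cannot be told apart where those ranges are separate. In whole tissue, fewer cells of a type and less RNA per cell cannot be told apart.

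Per kilobase of exon, Nr1d1 had the highest level of the 10 in Con, with a mean of 22.2 CPM per kb (14.9 to 26.9). It was followed by Dbp with 9.83 (4.63 to 13.1) and Clock with 9.40 (8.57 to 10.7). The other 7 lay between 4.85 (Cry1) and 3.25 (Per3) CPM per kb. The libraries of neighbours in this order overlapped except between Nr1d1 and Dbp and between Clock and Cry1. Over the 12 libraries Clock varied least, 1.80-fold from the lowest to the highest, and Per3 most, 9.17-fold, followed by Cry1 with 8.38-fold and Dbp with 7.47-fold.

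**Figure D1:**
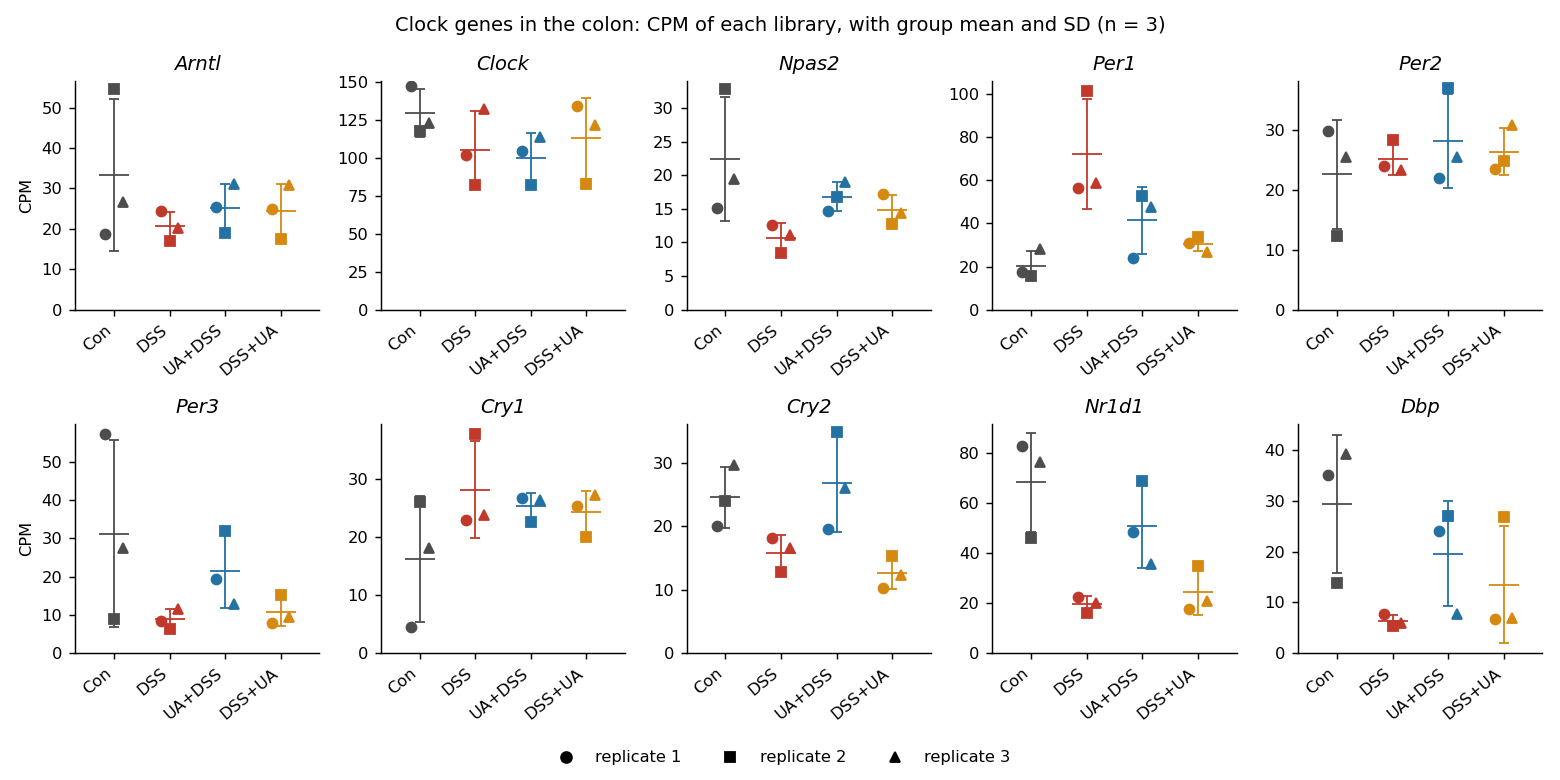
CPM of the 10 clock genes (y axis, from 0) in the 4 groups (x axis), with each library as a point shaped by its replicate number and the group mean and SD as a bar (n = 3). Nr1d1 lies between 15.9 and 22.6 in DSS and between 45.9 and 82.8 in Con, while Per1 lies between 56.4 and 102 in DSS and between 15.6 and 28.2 in Con.

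The first comparison asked which clock genes differed between the colitis model and the control. Compared with the Con group, Per1 rose in the DSS group and Nr1d1, Dbp, Per3 and Npas2 fell, and the other 5 members did not pass the test. The quasi-likelihood test of edgeR (p adjusted by Benjamini-Hochberg over 17658 genes, threshold 0.05) thus called 1 of the 10 higher, where 13.9% of all genes were called higher, and 4 of the 10 lower, where 12.6% were called lower. The median log2 fold change of the 10 was -0.66, against -0.034 over all genes. The libraries of DSS and Con did not overlap for 5 of the 10 members (Npas2, Per1, Cry2, Nr1d1 and Dbp), and for 41.3% of all genes. The count of 5 fell to 3 without Con 1, Con 3, DSS 1 or DSS 3 and to 2 without DSS 2. The share of all genes called in those fits is not given here.

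Among the activators, Npas2 fell in the DSS group. Npas2 measured 15.2, 32.8 and 19.4 CPM in Con 1, 2 and 3 and 12.7, 8.47 and 11.0 in DSS 1, 2 and 3, so the groups did not overlap. It fell by 1.06 on the log2 scale (SE 0.28, edgeR adjusted p = 0.0183, with 0.00322 to 0.284 over 22 alternatives). Con 2 held the highest value, and without it the log2 fold change was -0.68 (edgeR adjusted p = 0.0747). Without DSS 2 it was -0.92 (edgeR adjusted p = 0.056), and with the mean log2 CPM of the epithelial markers as a covariate it was -0.58 (edgeR adjusted p = 0.284). In UA+DSS Npas2 measured 14.7, 16.7 and 19.0 CPM, above every DSS library. In DSS+UA it measured 17.2, 12.7 and 14.3 CPM, and the lowest of these (12.74) was close to the highest DSS library (12.65). For the comparisons of the UA groups with DSS, the share of all genes without overlap was not counted. Neither difference from DSS passed the test, with log2 fold changes of 0.65 (SE 0.28, edgeR adjusted p = 0.123) and 0.46 (SE 0.28, edgeR adjusted p = 0.288).

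Arntl, the partner that the loop cannot do without, measured 18.7, 54.6 and 26.7 CPM in Con and 24.4, 17.1 and 20.3 in DSS. The high value of Con 2 stood apart from the other 11 libraries, which lay between 17.1 and 31.1 CPM. The difference of -0.69 (SE 0.36) on the log2 scale did not pass the test (edgeR adjusted p = 0.173, with 0.0611 to 0.956 over the alternatives). In UA+DSS Arntl measured 25.5, 19.0 and 31.1 CPM and in DSS+UA 24.9, 17.5 and 30.8, so both groups overlapped with Con and with DSS. Clock, the other partner, lay between 118 and 147 CPM in Con, 82.0 and 132 in DSS, 81.7 and 114 in UA+DSS and 82.6 and 134 in DSS+UA. Its log2 fold change in DSS against Con was -0.30 (SE 0.23, edgeR adjusted p = 0.345), and neither Arntl nor Clock was called in any of the 6 comparisons or under any alternative.

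Among the repressors, Per1 was the member that rose in DSS. It measured 17.3, 15.6 and 28.2 CPM in Con and 56.4, 102 and 58.8 in DSS, so every DSS library was above every Con library. The mean was 20.4 ± 6.85 CPM in Con and 72.3 ± 25.4 in DSS (SD, n = 3), a ratio of 3.54. On the log2 scale the difference was 1.83 (SE 0.34, edgeR adjusted p = 0.00489, with 8.71e-06 to 0.0545 over the alternatives), and the call was lost only with the epithelial markers as a covariate. Without DSS 2, the highest library, it was 1.50 (edgeR adjusted p = 0.0117). Per1 is known to respond to glucocorticoids and to growth and stress signals as well as to the clock. Of 6 listed glucocorticoid targets Dusp1 was called higher in DSS against Con, with 18.0 to 23.9 CPM in Con and 120 to 934 in DSS. Of 6 immediate early genes Egr1 (16.4 to 25.6 CPM in Con, 54.3 to 105 in DSS) and Junb (107 to 149 in Con, 218 to 909 in DSS) were called higher, where the share of all genes was the 13.9% given above, and neither count is read as particular to its list. DSS 2 held the highest value of Per1, Dusp1, Egr1 and Junb alike. All 6 glucocorticoid targets had a positive log2 fold change in DSS against Con, with a median of 1.03, against -0.034 over all genes. The libraries of DSS and Con did not overlap for 3 of the 6 (Dusp1, Fkbp5 and Zbtb16), and for 41.3% of all genes. Fkbp5 measured 24.3 to 143 CPM in Con and 185 to 285 in DSS, and Zbtb16 0.222 to 4.40 and 6.73 to 9.88, without a call. Of the targets other than Dusp1, among the DSS libraries, Tsc22d3 was highest in DSS 2 and Zbtb16 and Sgk1 in DSS 3. Fkbp5 and Klf9 were lowest in DSS 2 and highest in DSS 3. The part of glucocorticoid, growth and stress signals in the Per1 result was not tested.

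Per3 moved the other way from Per1. It measured 57.4, 8.87 and 27.4 CPM in Con and 8.47, 6.26 and 11.5 in DSS, and Con 2 lay within the DSS range. The log2 fold change was -1.84 (SE 0.58, edgeR adjusted p = 0.0403), but 13 of the 22 alternatives lost the call, with adjusted p from 0.00647 to 0.165 over the alternatives. Among them, leaving out Con 1 gave -1.05 (edgeR adjusted p = 0.165), Con 3 -1.94 (edgeR adjusted p = 0.0628), DSS 1 -1.82 (edgeR adjusted p = 0.105), DSS 2 -1.65 (edgeR adjusted p = 0.118) and DSS 3 -2.09 (edgeR adjusted p = 0.0578). Leaving out UA+DSS 1, DSS+UA 1 or DSS+UA 3, which enter through the shared spread, gave edgeR adjusted p values of 0.0578, 0.0518 and 0.058. Limma-voom gave -1.52 (adjusted p = 0.111). Per2 measured 29.9, 12.4 and 25.5 CPM in Con and 23.9, 28.3 and 23.2 in DSS, with a log2 fold change of 0.16 (SE 0.30, edgeR adjusted p = 0.718). The 3 Per genes thus differed in direction: Per1 rose, Per3 fell, and Per2 did not pass the test.

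Cry1 measured 4.50, 26.0 and 18.1 CPM in Con and 22.8, 37.7 and 23.8 in DSS, and Con 1 was the lowest of the 12 libraries. Its log2 fold change of 0.79 (SE 0.47) did not pass the test (edgeR adjusted p = 0.221, with 0.00661 to 0.472 over the alternatives). With the Hox score as a covariate it was 1.48 (edgeR adjusted p = 0.00661), the one alternative that called Cry1 in this comparison. Cry2 measured 20.0, 24.0 and 29.6 CPM in Con and 18.1, 12.8 and 16.5 in DSS. The groups did not overlap, and the log2 fold change of -0.63 (SE 0.25) did not pass the test (edgeR adjusted p = 0.0816, with 0.0628 to 0.557 over the alternatives). Part of Cry2 is antisense to D930015M05Rik, which had at most 0.828 CPM in a library.

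Nr1d1 fell in the DSS group. It measured 82.8, 45.9 and 76.4 CPM in Con and 22.6, 15.9 and 20.1 in DSS, with means of 68.4 ± 19.7 and 19.5 ± 3.38 CPM (SD, n = 3). The lowest Con library was 2.04 times the highest DSS library. On the log2 scale the difference was -1.81 (SE 0.33, edgeR adjusted p = 0.00429), and it was called under all 22 alternatives, with adjusted p from 5.71e-06 to 0.03. Nr1d1 shares 263 exonic bases with Thra on the opposite strand, and the use of strand in counting is not given in the sources used here. Thra itself lay between 57.9 and 66.7 CPM in Con and between 36.5 and 42.0 in DSS, a log2 fold change of -0.68 (SE 0.15, edgeR adjusted p = 0.00937), and the part of shared reads in the Nr1d1 result was not tested.

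Dbp fell by more than any other member, with values of 35.1, 13.9 and 39.3 CPM in Con and 7.60, 5.26 and 5.86 in DSS. The groups did not overlap, and the DSS mean was 6.24 ± 1.22 CPM against 29.4 ± 13.6 in Con (SD, n = 3). The log2 fold change was -2.24 (SE 0.64, edgeR adjusted p = 0.0279, with 0.0016 to 0.126 over the alternatives). Leaving out Con 1 or Con 3 gave -2.09 and -1.98 (edgeR adjusted p = 0.0652 and 0.0686). Leaving out DSS 1, 2 or 3 gave -2.40, -2.13 and -2.19 (edgeR adjusted p = 0.0616, 0.0848 and 0.07). The size of the fall thus held while the call did not. Dbp shares 539 exonic bases with Sphk2 on the opposite strand, which lay between 66.3 and 80.3 CPM in Con and between 43.4 and 55.5 in DSS (log2 fold change -0.58, SE 0.18, edgeR adjusted p = 0.0363).

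**Figure D2:**
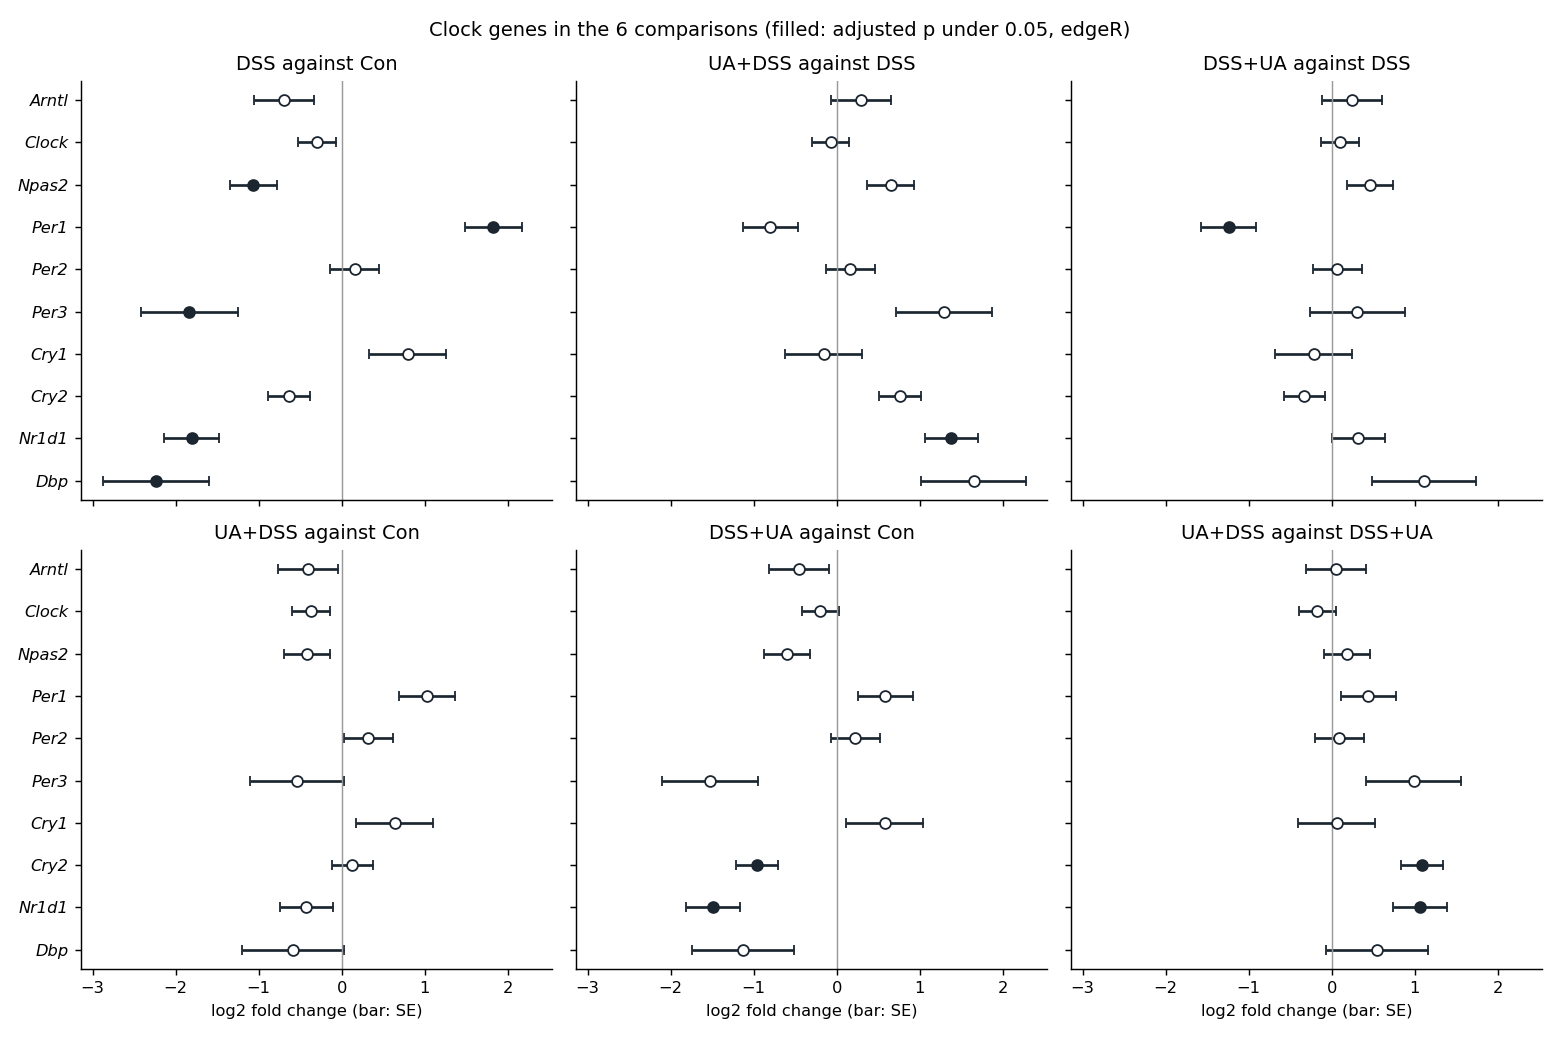
Log2 fold change (x axis, with SE as a bar) of the 10 clock genes (y axis) in the 6 comparisons of groups, with filled points where the edgeR adjusted p was under 0.05. In DSS against Con Per1 lies at 1.83 and Dbp at -2.24, and in UA+DSS against Con no point is filled.

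The next comparison asked whether UA begun before DSS changed the clock genes relative to DSS alone. Nr1d1 was higher in the UA+DSS group and the other 9 members did not pass the test. That is 1 of the 10 called higher, where 8.21% of all genes were, and 0 called lower, where 10.5% of all genes were. By unadjusted edgeR p, 6 of the 10 were under 0.05, as were 34.6% of all genes. DESeq2 called 3 members (Cry2, Nr1d1 and Dbp) and 25.7% of the genes to which it gave an adjusted p. Nr1d1 measured 48.3, 68.8 and 35.6 CPM in UA+DSS 1, 2 and 3, above the DSS maximum of 22.6. The log2 fold change was 1.38 (SE 0.32, edgeR adjusted p = 0.0178, with 0.00108 to 0.296 over the alternatives). Without UA+DSS 2 it was 1.11 (edgeR adjusted p = 0.0837) and without DSS 2 it was 1.25 (edgeR adjusted p = 0.0566). With the Hox score as a covariate it was 1.72 (edgeR adjusted p = 0.121) and with the epithelial markers 1.35 (edgeR adjusted p = 0.296).

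The remaining members of that comparison were described by their values. Dbp measured 24.1, 27.0 and 7.76 CPM in UA+DSS, and the lowest of these was close to the DSS maximum of 7.60. Its log2 fold change against DSS was 1.65 (SE 0.63, edgeR adjusted p = 0.0914), and it was called without DSS+UA 2 (1.58, edgeR adjusted p = 0.0459). Per3 measured 19.5, 32.0 and 12.9 CPM, above every DSS library (1.29, SE 0.58, edgeR adjusted p = 0.138). Cry2 measured 19.6, 34.9 and 26.0 CPM, also above every DSS library (0.76, SE 0.25, edgeR adjusted p = 0.0547). Cry2 was called without Con 1 (edgeR adjusted p = 0.0473) and without UA+DSS 1 (edgeR adjusted p = 0.0435). Per1 measured 23.8, 52.9 and 47.6 CPM, below every DSS library (-0.80, SE 0.33, edgeR adjusted p = 0.112). Per2 (22.0 to 36.9 CPM) and Cry1 (22.6 to 26.8 CPM) overlapped with DSS.

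UA begun after the start of DSS was compared with DSS alone in the same way. Per1 was lower in the DSS+UA group, the 1 member called lower where 5.0% of all genes were, and 0 members were called higher, where 2.54% of all genes were. Per1 measured 31.1, 33.7 and 26.9 CPM, below the DSS minimum of 56.4, with a log2 fold change of -1.24 (SE 0.33, edgeR adjusted p = 0.0478). The call was lost under 14 of the 22 alternatives, with adjusted p from 0.00699 to 0.325. Leaving out Con 2, DSS 1, DSS 2, UA+DSS 2 or UA+DSS 3 gave edgeR adjusted p values of 0.057, 0.0506, 0.15, 0.0598 and 0.07. Leaving out DSS+UA 1, 2 or 3 gave 0.088, 0.12 and 0.157 by edgeR, adjusted in the same way. Dusp1 (32.2 to 43.8 CPM) and Egr1 (19.7 to 32.2 CPM) were also called lower than in DSS, and their part in the Per1 result was not tested. Nr1d1 measured 17.5, 34.8 and 20.8 CPM and Dbp 6.74, 26.8 and 6.93. In both genes DSS+UA 2 stood above DSS while DSS+UA 1 and 3 lay within the DSS range.

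The groups given UA were also compared with Con and with each other. UA+DSS against Con gave 0 called members by edgeR, DESeq2 and limma-voom, where edgeR called 0.00566% of all genes. At an unadjusted p under 0.05 it had 1 member (Per1) and 12.1% of all genes. The Per1 values of 23.8 to 52.9 CPM in UA+DSS gave a log2 fold change of 1.02 (SE 0.33) against Con (edgeR adjusted p = 0.309). In DSS+UA against Con, Cry2 and Nr1d1 were called lower, 2 of the 10 where 8.95% of all genes were, and 0 were called higher, where 9.13% were. Cry2 measured 10.2, 15.3 and 12.3 CPM in DSS+UA, below the Con minimum of 20.0, with a log2 fold change of -0.96 (SE 0.25, edgeR adjusted p = 0.0258). For Cry2 the edgeR adjusted p was 0.0589 without Con 2, 0.0908 without Con 3, 0.0866 without DSS+UA 1 and 0.09 without DSS+UA 3, and 0.118 with the Hox score as a covariate (0.00462 to 0.118 over the alternatives). Nr1d1 had a log2 fold change of -1.49 (SE 0.32, edgeR adjusted p = 0.0132) and lost its call without DSS+UA 3 (-1.38, edgeR adjusted p = 0.061).

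Without Con 2, Per3 was also called lower in DSS+UA than in Con (-1.96, edgeR adjusted p = 0.0286), against -1.53 (SE 0.58, edgeR adjusted p = 0.0854) with it. Without DSS+UA 2, Dbp was called lower there (-2.09, edgeR adjusted p = 0.0413), against -1.13 (SE 0.62, edgeR adjusted p = 0.213) with it. Between UA+DSS and DSS+UA, Cry2 and Nr1d1 were higher in UA+DSS, 2 of the 10 where 7.54% of all genes were called higher, and 0 were lower, where 9.23% were. The log2 fold change of Cry2 was 1.09 (SE 0.25, edgeR adjusted p = 0.0179) and that of Nr1d1 1.06 (SE 0.32, edgeR adjusted p = 0.0437). With the Hox score, whose ranges in these groups are far apart, the values were 0.69 (edgeR adjusted p = 0.566) for Cry2 and 1.55 (edgeR adjusted p = 0.364) for Nr1d1. Cry2 lost its call without UA+DSS 2 (edgeR adjusted p = 0.0816), DSS+UA 1 (0.0618) or DSS+UA 3 (0.0693), and Nr1d1 under 11 of the 22 alternatives. For Nr1d1, 7 of them left out a library (Con 3, DSS 1, DSS 3, UA+DSS 1, UA+DSS 2, DSS+UA 1 or DSS+UA 3), with edgeR adjusted p of 0.0588 to 0.175.

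A test of any difference among the 4 groups called 3 of the 10 members, where 35.0% of all genes were called. These were Nr1d1 (edgeR adjusted p = 0.00603), Per1 (edgeR adjusted p = 0.0104) and Cry2 (edgeR adjusted p = 0.0186). The share of clock members with a difference among groups was thus close to that of all genes.

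The clock genes also varied between mice of 1 group. The median SD of the 10 on the log2 scale was 0.62 in Con, 0.28 in DSS, 0.40 in UA+DSS and 0.33 in DSS+UA. The median over all genes tested was 0.35, 0.32, 0.24 and 0.29, so the members were more spread than the median gene in Con, UA+DSS and DSS+UA and less in DSS. Con 1 and Con 2 lay at opposite ends for several members. Con 1 held the highest Per3, Per2 and Nr1d1 and the lowest Arntl, Npas2 and Cry1 of the group, and Con 2 the reverse for all 6. Con 1 also held the highest Hox score of the group (5.53) and Con 2 the lowest (-3.03). The mean log2 CPM of the epithelial markers was lowest in Con 1 (9.63) and highest in Con 2 (10.5). The part of position along the colon and of tissue make-up in these differences was not tested. In DSS+UA it was DSS+UA 2 that held the highest Dbp, Nr1d1, Per3, Per1 and Cry2 and the lowest Arntl, Npas2, Clock and Cry1. In UA+DSS, UA+DSS 2 held the highest Dbp, Nr1d1, Per1, Per2, Per3 and Cry2 and the lowest Arntl, Clock and Cry1.

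The difference between Dbp and Arntl, genes known from other work to have opposite phases, set the libraries apart in a way that crossed the groups. On the log2 scale Dbp minus Arntl was 0.91, -1.97 and 0.56 in Con 1, 2 and 3, and -1.67, -1.68 and -1.77 in DSS 1, 2 and 3. It was -0.08, 0.50 and -1.98 in UA+DSS and -1.87, 0.61 and -2.13 in DSS+UA. Thus 7 libraries lay between -2.13 and -1.67 and the other 5 between -0.08 and 0.91. The lower 7 held all 3 DSS libraries and at least 1 library of each other group. Hence the DSS mice were alike in this measure (SD 0.056, n = 3), whereas the other groups were not (SD 1.57 in Con, 1.30 in UA+DSS and 1.51 in DSS+UA).

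**Figure D3:**
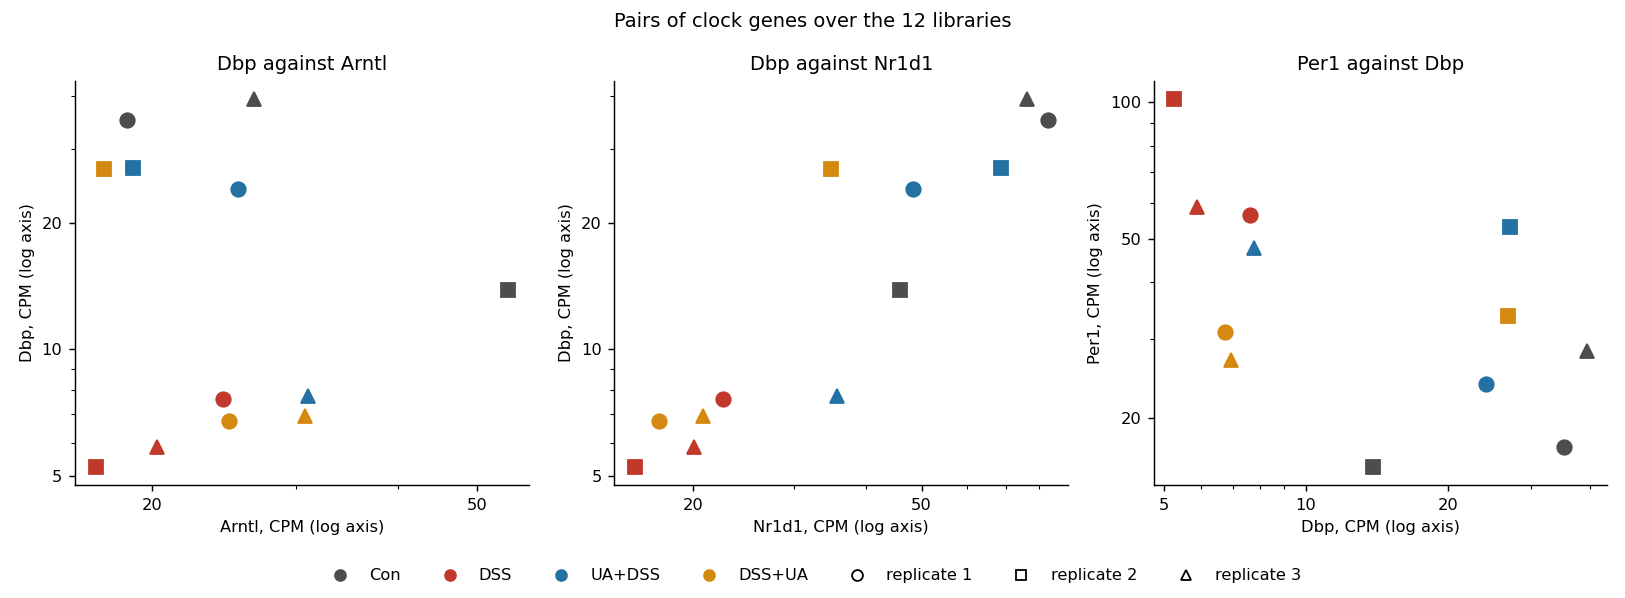
CPM of Dbp against Arntl, Dbp against Nr1d1 and Per1 against Dbp in the 12 libraries (log axes), coloured by group and shaped by replicate number. In the Per1 panel the DSS libraries stand at the upper left, with Dbp between 5.26 and 7.60 CPM and Per1 between 56.4 and 102.

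Con 2, whose Dbp minus Arntl was at the DSS end, reached that value with both genes above every DSS library. It also differed from the DSS libraries in other members. Its Nr1d1 (45.9 CPM) was 2.04 times and its Dbp (13.9 CPM) 1.82 times the highest DSS library. Its Npas2 (32.8 CPM) and Arntl (54.6 CPM) were 2.59 and 2.23 times the highest DSS library. The lowest DSS value of Per1 was 3.60 times that of Con 2, whereas Per3 of Con 2 (8.87 CPM) lay within the DSS range. In the chosen fit of DSS against Con, Npas2, of the Arntl phase, was called lower, as were Dbp, Nr1d1 and Per3 of the Dbp phase. Per1 was called higher. With the epithelial markers as a covariate the calls of Npas2, Per1, Per3 and Dbp were lost, while that of Nr1d1 held. Npas2 then went from -1.06 to -0.58 on the log2 scale, Per1 from 1.83 to 1.59, Per3 from -1.84 to -2.04 and Dbp from -2.24 to -2.16. The covariate itself ran from 8.95 to 9.77 in DSS and from 9.63 to 10.5 in Con, so it differed along with the groups. Npas2 also lost its call without Con 2 (edgeR adjusted p = 0.0747), and Per3, among other fits, without Con 1 (edgeR adjusted p = 0.165). Whether a shift of phase would give these values was not tested. Per1 minus Dbp on the log2 scale was -1.02 to 0.17 in Con and 2.87 to 4.24 in DSS. These ranges had to be separate, since Per1 was higher and Dbp lower in every DSS library than in every Con library. In UA+DSS this difference was -0.02 to 2.60 and in DSS+UA 0.33 to 2.19. A score over 8 members, the mean log2 CPM of Dbp, Nr1d1 and the 3 Per genes minus that of Arntl, Clock and Npas2, overlapped between all groups, with -1.87 to 0.16 in Con and -0.79 to -0.40 in DSS. It was -0.93 to 0.47 in UA+DSS and -1.39 to -0.03 in DSS+UA. Per1, which rose in DSS, enters the score with Dbp, Nr1d1 and Per3, which fell, and Npas2, which also fell, is subtracted. These changes offset each other, so the overlap of the score is not read as a lack of difference. The hour of sampling was not recorded in the sources used here, and its part in the differences between libraries and groups was not tested.

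Within groups, 12 pairs of libraries can be formed, which share libraries and so are given as a description. Nr1d1 differed in the same direction as Dbp in 11 of the 12 pairs, and Per3 and Cry2 in 10. Per1 and Per2 did so in 7, and Cry1 differed in the opposite direction in 9. Arntl and Npas2 each differed in the opposite direction to Dbp in 7 pairs and in the same direction in 5. Npas2 differed in the same direction as Arntl in 10 of the 12 pairs, while Per1 and Per3 went the opposite way in 10 and 9. Between DSS and Con, 9 pairs of libraries can be formed, which also share libraries. A difference in the same direction in all 9 restates the lack of overlap given above, which 41.3% of all genes had. Per1 was higher in DSS in all 9 and Cry1 in 7. Dbp, Nr1d1, Npas2 and Cry2 were lower in all 9, Per3 in 8, Arntl and Clock in 7 and Per2 in 5.

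The genes whose pattern was most like that of Dbp were found by the root-mean-square difference of centred log2 CPM over the 12 libraries, among 13723 genes. Nr1d1 was the nearest (0.44), followed by Cys1 (0.51), Ramp1 (0.54), Per3 (0.55) and Cyp2d37-ps (0.57), where the spread of Dbp itself was 1.05. Of the other clock genes Nr1d2 ranked 46, Tef 81 and Nfil3 13431. The remaining members ranked lower than Tef: Cry2 812, Npas2 3338, Per2 5525, Clock 6240, Arntl 8513, Cry1 12392 and Per1 12433. Group means were not removed, so a shared difference between groups counts toward the likeness. For Arntl, whose own spread was 0.45, the nearest genes were Epn3 (0.23), Fancg (0.27), Npas2 (0.28), Mtmr4 (0.28) and Prkci (0.28).

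The rest of the clock was read from 16 other clock genes and 7 genes that many tissues express under clock control. In DSS against Con, 3 of the 16 were called higher (Nfil3, Bhlhe40 and Timeless) and 2 lower (Nr1d2 and Btrc), and 2 of the 7 outputs higher (Tspan4 and Coq10b). With 13.9% of all genes called higher and 12.6% lower, the counts of the 16 were close to the background. The calls of Nfil3 and Tspan4 held under all 22 alternatives and that of Bhlhe40 under 20, whereas Coq10b kept its call under 11, Timeless under 7 and Btrc under 6. Among the fits that lost the call of Coq10b was the one without DSS 2, where its log2 fold change went from 0.64 to 0.39 (edgeR adjusted p = 0.14).

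Nfil3, the repressor that competes with Dbp for D-boxes, the letters in capitals in the Per3 stretch, measured 1.71, 6.49 and 4.49 CPM in Con and 39.4, 80.8 and 29.4 in DSS. Every DSS library was above every Con library, and the log2 fold change was 3.56 (SE 0.50, edgeR adjusted p = 0.00229, with 1.40e-11 to 0.0285 over the alternatives). Nfil3 was lower in UA+DSS (11.4 to 16.0 CPM) and in DSS+UA (7.86 to 13.4 CPM) than in DSS, by -1.81 (SE 0.47, edgeR adjusted p = 0.0248) and -2.28 (SE 0.47, edgeR adjusted p = 0.0261). The first call held under 16 of the 22 alternatives (edgeR adjusted p up to 0.396), and was lost without DSS 2 (-1.27), UA+DSS 1 (-1.67), UA+DSS 2 (-1.90) or UA+DSS 3 (-1.86) and with the Hox score (-3.09) or the epithelial markers (-1.63). The call in DSS+UA held under 17 of the 22 (edgeR adjusted p up to 0.208), and was lost without DSS 2 (-1.73), DSS+UA 2 (-2.15) or DSS+UA 3 (-2.22) and with either covariate. Nfil3 is also an immune regulator. The 6 macrophage markers summed to 155 to 425 CPM in Con, 1109 to 1961 in DSS, 306 to 720 in UA+DSS and 404 to 1280 in DSS+UA. The neutrophil markers, given above for Con and DSS, summed to 12.3 to 66.8 CPM in UA+DSS and 125 to 682 in DSS+UA. Against DSS, 3 of the 6 macrophage and 6 of the 6 neutrophil markers were called lower in UA+DSS, and 0 of either in DSS+UA. The part of these cells in the Nfil3 result was not tested.

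Nr1d2, the paralog of Nr1d1, followed it with 120.7, 78.0 and 115 CPM in Con and 49.1, 40.6 and 65.4 in DSS. Its log2 fold change was -1.01 (SE 0.26, edgeR adjusted p = 0.0179) in DSS against Con and, between UA+DSS and DSS, 0.93 (SE 0.26, edgeR adjusted p = 0.0343). The call against Con was lost under 4 alternatives (without Con 1, DSS 1 or DSS 2 and with the epithelial markers, edgeR adjusted p up to 0.0947). The call between UA+DSS and DSS held under 13 of the 22. It was lost without DSS 1, DSS 2, UA+DSS 1, UA+DSS 2 or DSS+UA 3 (0.68 to 0.95), with the replicate block (0.92, edgeR adjusted p = 0.0573), in the fit of those groups alone, with the Hox score (1.05, edgeR adjusted p = 0.187) and with the epithelial markers (0.81, edgeR adjusted p = 0.396). In DSS+UA it measured 41.4 to 57.1 CPM, lower than in Con by -1.15 (SE 0.27, edgeR adjusted p = 0.0163) and overlapping with DSS. That call was lost without Con 3, DSS+UA 1 or DSS+UA 3 (edgeR adjusted p up to 0.0706). Tef, a D-box activator related to Dbp, did not pass the test in any of the 6 comparisons, with 33.2 to 106 CPM in Con and 36.6 to 58.4 in DSS. Ciart, a repressor of the loop, had 0.887 to 6.00 CPM over the 12 libraries and was not called either.

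Tspan4, an output gene, measured 8.26 to 13.6 CPM in Con and 54.0 to 64.3 in DSS, a log2 fold change of 2.40 (SE 0.24, edgeR adjusted p = 0.000833). It was lower than in DSS in UA+DSS (-2.10, SE 0.23, edgeR adjusted p = 0.00398) and in DSS+UA (-1.13, SE 0.23, edgeR adjusted p = 0.0235). The call in UA+DSS held under 20 of the 22 alternatives and that in DSS+UA under 16, lost without DSS 2 or any DSS+UA library and with either covariate (edgeR adjusted p up to 0.216). Markers of other cell types moved alongside Tspan4. The 6 fibroblast markers, none of which was at 0, summed to 1068 to 1825 CPM in Con and 3197 to 6930 in DSS, with 5 of the 6 called higher. They summed to 609 to 1636 CPM in UA+DSS and 949 to 2340 in DSS+UA. The 5 endothelial markers, of which 2 were called higher, summed to 120.1 to 173 CPM in Con and 197 to 325 in DSS, and to 97.7 to 118 in UA+DSS and 77.8 to 84.4 in DSS+UA. The part of these cells in the Tspan4 result was not tested.

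In UA+DSS against DSS, 2 of the 16 were called higher (Nr1d2 and Btrc), where 8.21% of all genes were, and 3 lower (Bhlhe40, Timeless and Nfil3), where 10.5% were. The call of Btrc held under 19 of the 22 alternatives, that of Bhlhe40 under 14 and that of Timeless under 7. In DSS+UA against DSS, 3 of the 16 were called lower (Rora, Nfil3 and Csnk1e), where 5.0% of all genes were. Rora measured 4.27 to 5.94 CPM in DSS+UA and 15.9 to 16.9 in DSS (-1.70, SE 0.28, edgeR adjusted p = 0.0134), a call that held under 20 of the 22 alternatives and was lost without DSS+UA 3 (-1.58, edgeR adjusted p = 0.0928) and with the epithelial markers. Csnk1e, a kinase that acts on PER proteins, kept its call under 8 of the 22. Its log2 fold change was -1.02 (SE 0.27, edgeR adjusted p = 0.0457), and without DSS 2, the highest library at 46.5 CPM, it was -0.56 (edgeR adjusted p = 0.125).

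In DSS+UA against Con, 2 of the 16 were called lower (Nr1d2 and Rora), where 8.95% of all genes were, and 2 of the 7 higher (Tspan4 and Leo1), where 9.13% were. The call of Tspan4 held under all 22 alternatives, that of Rora under 16 and that of Leo1 under 5. In UA+DSS against DSS+UA, 3 of the 16 were called higher (Nr1d2, Rora and Btrc), where 7.54% of all genes were, and Tspan4 was called lower, where 9.23% were. Those 4 calls held under 17 to 19 of the 22 alternatives, and each was lost with the Hox score. UA+DSS against Con gave 0 of the 16 and 0 of the 7 called by edgeR, with 1 and 0 at an unadjusted p under 0.05.

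**Figure D4:**
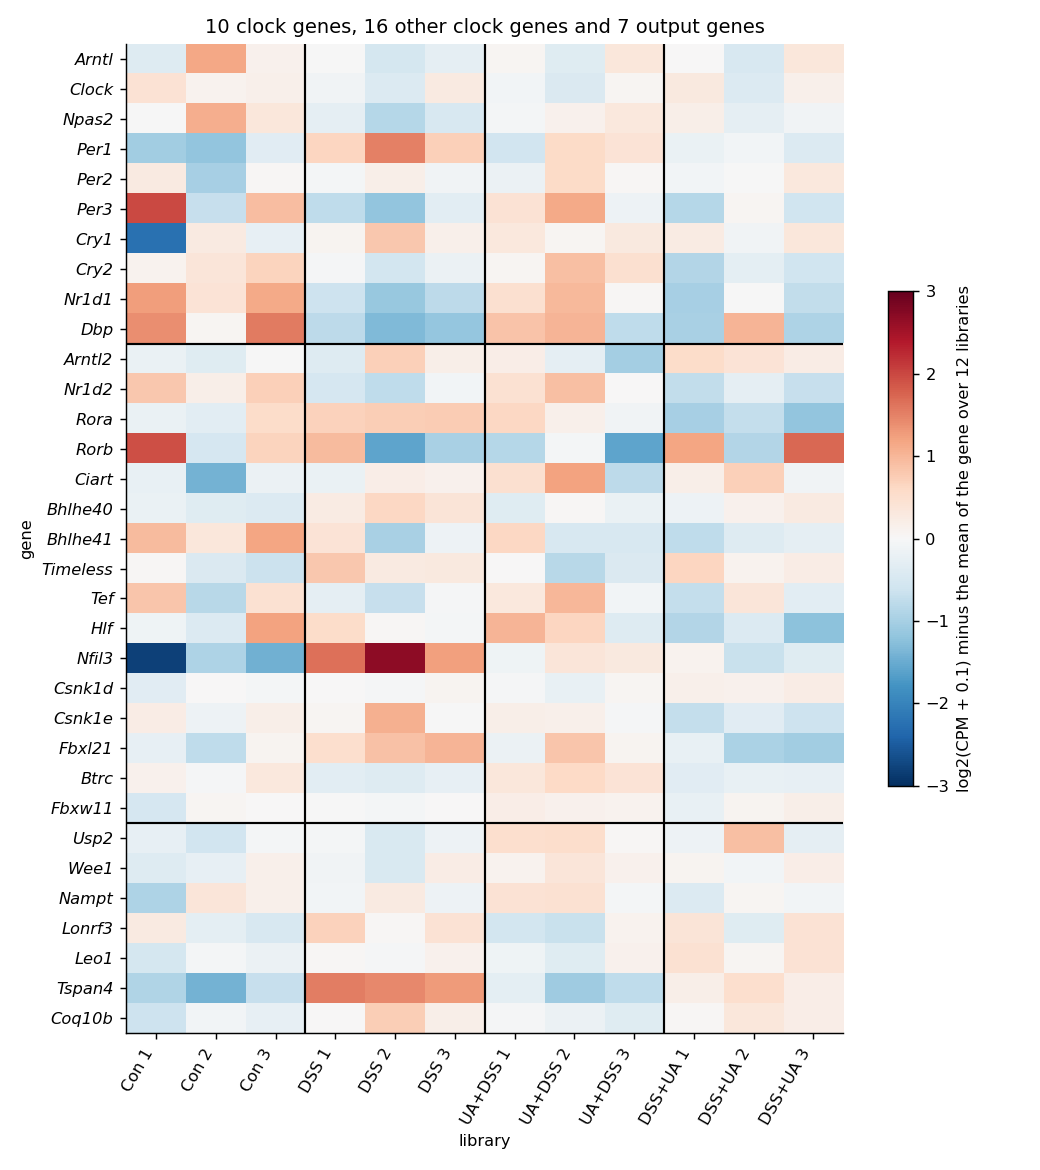
Log2(CPM + 0.1) of each gene (rows) in each library (columns), centred on the mean of the gene over the 12 libraries, with the 10 clock genes at the top, then 16 other clock genes and 7 output genes. Colours run from -3 (blue) to 3 (red), and Nfil3 and Tspan4 are red in the 3 DSS libraries while Nr1d1 and Dbp are blue there.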

How the data were processed

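Total RNA of 12 colon samples (3 a group) was sequenced. Groups and replicate numbers come from the sample labels. The authors checked reads with FastQC, mapped them to GRCm38 and took counts of genes from Hisat2, and the deposited values are raw whole-number counts for each Ensembl gene. No source used here states versions, the annotation release, the use of strand or how reads with several matches were treated. The labels name Trizol and the methods the RNeasy kit.

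Genes were matched to symbols by Ensembl ID (GENCODE M21). With edgeR 4.0.16 (R 4.3.3), filterByExpr left 17658 genes (99.8% of counts), and a robust quasi-likelihood model with TMM factors was fitted to the 12 samples together, with Benjamini-Hochberg adjustment over all genes tested and a threshold of 0.05. The fit was tested on simulated data. Log2 CPM has a prior count of 2. SE is the log2 fold change divided by the square root of F. Alternatives were library-size and upper-quartile scaling, no filter, at least 10 counts in every sample, DESeq2 1.42.0, limma-voom (limma 3.58.1), a fit restricted to 2 groups, a replicate block, the Hox score or the epithelial markers as a covariate, and leaving out each library. Promoter motifs, lists and figures were computed in Python 3.11.15 with pandas 2.3.3 and matplotlib 3.10.9. The members, lists and motifs were chosen with earlier results of these data known. The text names the 10 members, genes of the 2 other clock lists that were called, the 5 genes most like Dbp and Arntl (mean log2 CPM of at least 1) and up to 3 genes of the glucocorticoid and immediate early lists by smallest p. Some genes of the list of other clock genes are not reported here and were left out of its counts. Tef, Ciart and the glucocorticoid targets other than Dusp1 were named after their values were seen. No source says that the samples of a group are other than separate mice, and p-values measure the spread between them. No libraries of a group were alike within sampling noise.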

Additional observations from a re-analysis of the deposited data

How the results depend on the processing

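Of 10 members in 6 comparisons, no log2 fold change that was called in the chosen fit or under an alternative changed direction. The count in DSS against Con (5) became 3 without a low-count filter, 3 in a fit of those groups alone and 1 with the epithelial markers as a covariate, and was 2 to 5 without any 1 library. For UA+DSS against DSS (1) it was 2 with at least 10 counts in every sample, 3 by DESeq2, 0 with the Hox score or the epithelial markers, and 0 to 2 without any 1 library. For DSS+UA against DSS (1) it was 0 without the filter, by limma-voom, in the fit of those groups alone, and with the replicate block, the Hox score or the epithelial markers, and 0 to 1 without any 1 library. For UA+DSS against Con it was 0 under every alternative run. For DSS+UA against Con (2) DESeq2 also called Per3 (-1.53, DESeq2 adjusted p = 0.0312). With the Hox score Cry2 lost its call there, while Cry1 (2.02, edgeR adjusted p = 0.017) and Per3 (-2.04, edgeR adjusted p = 0.0466) were called. The count was 0 to 3 without any 1 library. For UA+DSS against DSS+UA (2) it was 1 without the filter, 1 in the fit of those groups alone, 1 with the replicate block, 0 with the Hox score, and 0 to 2 without any 1 library. For the test of any difference (3) DESeq2 gave 6, and it was 2 to 4 without any 1 library. The cause of these changes was not tested. Apart from DESeq2 in UA+DSS against DSS, given above, the share of all genes called under an alternative is not given here. The changes are thus not read as particular to the clock genes. The replicate numbers did not pair the samples: 5 of 18 same-numbered pairs correlated above 0.1 in their deviations from the group means (-0.22 to 0.19). The replicate block changed no other count of called members by over 1.5 times. The score over 8 members moved by less than the spread between replicates with a prior count of 0.5 or library size alone. The coefficient of variation between mice that edgeR estimated was lowest for Clock (0.224) and highest for Dbp (0.52).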
